A study of Mus musculus with 12 samples.

Results

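The levels of 10 kinases of the AMPK-related family were followed in ribosome-bound and total RNA of the ventromedial nucleus (VMN) of the mouse hypothalamus. The members are Sik1, Sik2, Sik3, Mark1, Mark2, Mark3, Mark4, Brsk1, Brsk2 and Nuak1, taken by gene symbol from the 46517 Ensembl gene identifiers counted in the files, and each had reads in all 12 libraries. Ribosome-bound RNA was obtained by translating ribosome affinity purification (TRAP), in which a GFP-tagged ribosomal protein is pulled down together with the RNA that its ribosome holds. The study asked which transcripts of the VMN change when AMPK is blocked.

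The 12 libraries fell into 4 groups of 3. DN output is RNA pulled down from SF1 cells of animals given an adeno-associated virus (AAV) for dominant-negative AMPK and an AAV for the GFP-L10 fusion. CTRL output is the same pull-down from animals whose labels say that they lacked the mutant AMPK. DN input and CTRL input are total RNA of the dissected VMN from which the pull-downs were made. Each pool held 6 animals and gave 1 output and 1 input library, so the libraries stand for 6 pools and p-values measure the spread between pools. The main tests between outputs and inputs were not paired by pool. All mice ate chow and were studied after an overnight fast. The protocol text given for CTRL mentions the dominant-negative virus too, and the groups here follow the sample titles and characteristics. Whether CTRL animals had another virus in its place, what confined GFP-L10 to SF1 cells, and the strain, sex and age of the animals were not given in the sources used here. If CTRL animals had GFP-L10 alone, the mutant AMPK and the added virus cannot be told apart.

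AMPK and its relatives share a kinase domain that is switched on when LKB1, an upstream kinase, phosphorylates a threonine in the activation loop. The salt-inducible kinases (SIKs) phosphorylate CRTC coactivators and class IIa histone deacetylases, which holds these in the cytoplasm and restrains CREB target genes. The MAP/microtubule affinity-regulating kinases (MARKs) phosphorylate tau and other microtubule-associated proteins and help to set cell polarity, the brain-specific kinases BRSK1 and BRSK2 act in neuronal polarity and at presynaptic terminals, and NUAK1 acts in axon branching. SF1 neurons of the VMN are known for their part in energy expenditure and in the response to low blood glucose.

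The coding sequence around the LKB1 target threonine is shown for each member, because this site defines the family and ties it to AMPK. Sequences are from the GENCODE mouse release M21 transcripts on GRCm38, run 5′ to 3′ on the coding strand and are 81 bases long. Capitals mark the threonine codon, which starts at base 46 of each sequence. Where 2 exons are named, the coordinates include the intron between them.
Sik1 (ENSMUSG00000024042, minus strand, exons 5 and 6, chr17:31850986-31851235): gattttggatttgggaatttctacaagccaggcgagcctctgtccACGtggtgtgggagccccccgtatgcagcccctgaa
Sik2 (ENSMUSG00000037112, minus strand, exons 4 and 5, chr9:50917573-50935416): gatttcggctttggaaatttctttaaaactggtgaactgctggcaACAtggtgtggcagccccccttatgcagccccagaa
Sik3 (ENSMUSG00000034135, plus strand, exons 4 and 5, chr9:46155540-46177951): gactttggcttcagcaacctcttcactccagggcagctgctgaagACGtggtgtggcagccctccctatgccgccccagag
Mark1 (ENSMUSG00000026620, minus strand, exon 8, chr1:184919629-184919709): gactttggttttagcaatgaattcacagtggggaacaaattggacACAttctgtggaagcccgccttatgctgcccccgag
Mark2 (ENSMUSG00000024969, minus strand, exon 8, chr19:7285843-7285923): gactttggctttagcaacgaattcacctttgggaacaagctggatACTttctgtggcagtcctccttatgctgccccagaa
Mark3 (ENSMUSG00000007411, plus strand, exon 8, chr12:111627121-111627201): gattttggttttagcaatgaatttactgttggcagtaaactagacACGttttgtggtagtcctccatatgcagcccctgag
Mark4 (ENSMUSG00000030397, minus strand, exon 8, chr7:19443228-19443308): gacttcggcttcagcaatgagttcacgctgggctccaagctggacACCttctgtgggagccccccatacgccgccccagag
Brsk1 (ENSMUSG00000035390, plus strand, exons 5 and 6, chr7:4698761-4698943): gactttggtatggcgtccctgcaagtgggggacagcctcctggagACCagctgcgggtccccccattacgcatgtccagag
Brsk2 (ENSMUSG00000053046, plus strand, exons 5 and 6, chr7:141984910-141985458): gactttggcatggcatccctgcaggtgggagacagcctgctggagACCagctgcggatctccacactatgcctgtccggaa
Nuak1 (ENSMUSG00000020032, minus strand, exon 5, chr10:84380780-84380860): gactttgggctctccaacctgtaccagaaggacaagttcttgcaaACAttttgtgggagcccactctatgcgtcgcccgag

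Identity at these 81 bases followed the subfamilies in part. Brsk1 and Brsk2 shared 84.0% of the bases and Mark1 and Mark2 shared 82.7%, against 44.4% for Brsk2 and Mark3, the least alike pair. Sik1 and Sik2 were identical at 77.8% of the bases, and each shared 71.6% with Sik3. Sik3 was closer to Mark2 (74.1%) than to Sik1 or Sik2. Nuak1 shared 63.0% with Sik3, its nearest member, and 53.1% with Mark3, its farthest.

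Reads of most members could be told from those of other genes. No run of 50 bases in Sik1, Sik3, Mark2, Mark4, Brsk2 or Nuak1 transcripts occurred in another gene, and the share was 0.37% for Mark1 and 0.79% for Mark3. It was 14.76% for Sik2 and 20.13% for Brsk1, which overlap exons of Ppp2r1b (1429 bp) and Tmem150b (1054 bp) on the opposite strand. Whether counting used strand is not given, so Sik2 and Brsk1 counts are less certain. Ppp2r1b had 5882 counts over the 12 libraries and Tmem150b had 6.

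Libraries held 34.64 to 55.46 M gene counts. Mitochondrially encoded genes took 17.9% to 26.1% of these in outputs and 74.9% to 79.7% in inputs, which left 26.18 to 32.14 M nuclear counts in outputs and 8.54 to 11.26 M in inputs. Levels below are normalized CPM, that is counts scaled to library size, with factors from the TMM method over the 12 libraries, and values are in the order of pools 1, 2 and 3. The 8 markers of VMN neurons summed to 1760 to 2390 CPM in DN outputs, 1470 to 1690 in CTRL outputs, 549 to 752 in DN inputs and 514 to 595 in CTRL inputs. None of the 8, among them Nr5a1, which encodes SF1, was at 0 in all 3 pools of a group. Nr0b1 had 0 counts in DN input pool 2. All other marker lists were lower in outputs than in inputs, astrocyte markers at 1120 to 1270 and 1640 to 1890 CPM in DN and CTRL outputs, against 3140 to 3470 and 3070 to 3740 CPM in DN and CTRL inputs. The 5 GABA neuron markers summed to 203 to 222 CPM in DN outputs, 244 to 315 in CTRL outputs, 684 to 804 in DN inputs and 634 to 820 in CTRL inputs. Of the output groups, DN thus had the higher VMN marker sums and the lower astrocyte and GABA neuron marker sums, with no overlap between pools. Most of the astrocyte gap lay in 1 gene, Slc1a2, a glial glutamate transporter, at 915 ± 61.1 CPM in DN outputs and 1410 ± 107 CPM in CTRL outputs (SD, n = 3 each). Likewise, most of the GABA neuron gap lay in Gad2, at 189 ± 14.3 CPM in DN outputs and 238 ± 31.5 CPM in CTRL outputs. Slc32a1, of the same list, had the higher mean in DN outputs, at 3.15 ± 2.04 CPM against 1.90 ± 0.595 CPM in CTRL outputs. The median log2 fold change of DN over CTRL outputs was -0.03 over the 7 astrocyte markers measured, with 3 above 0, against 0.36 for VMN markers with 6 of 8 above 0 and -0.40 for GABA neuron markers with 1 of 5 above 0. For oligodendrocyte, microglia and endothelial markers the median was -0.73, -0.43 and -0.07, with 0 of 7, 2 of 7 and 2 of 4 measured genes above 0. The oligodendrocyte sums, 169 to 252 CPM in DN outputs and 198 to 355 CPM in CTRL outputs, overlapped. Among all 6 lists, Ly6c1 in CTRL outputs was the 1 gene at 0 in a whole group.

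Among the salt-inducible kinases, Sik3 varied least between libraries and Sik1 had few reads. Sik3, a regulator of sleep need in mice, had 106, 111 and 86.0 CPM in DN outputs, 73.1, 110 and 109 CPM in CTRL outputs, 98.4, 90.0 and 78.4 CPM in DN inputs and 101, 92.5 and 70.6 CPM in CTRL inputs. All 12 libraries lay between 70.6 and 111 CPM, and the 4 groups overlapped. Sik2 had 30.2, 30.8 and 20.7 CPM in DN outputs, 14.7, 24.6 and 16.7 CPM in CTRL outputs, 21.6, 17.4 and 34.6 CPM in DN inputs and 18.0, 33.8 and 12 CPM in CTRL inputs. Its lowest value was in CTRL input pool 3, and every group overlapped every other. Sik1, itself induced by cAMP signals, had 0.884, 0.656 and 2.38 CPM in DN outputs, 2.08, 2.13 and 1.25 CPM in CTRL outputs, 4.43, 0.283 and 0.48 CPM in DN inputs and 1.98, 1.25 and 1.87 CPM in CTRL inputs. Both extremes of Sik1 were in DN inputs, where pool 1 had 124 counts, and pools 2 and 3 had 7 and 12.

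The MARK kinases differed in how closely their pools lay together. Mark1 had 14.6, 16.3 and 22.2 CPM in DN outputs, 9.99, 17.4 and 13.4 CPM in CTRL outputs, 5.39, 17.3 and 10 CPM in DN inputs and 7.62, 17.5 and 14.9 CPM in CTRL inputs. The groups overlapped throughout. Mark2, a kinase of tau and of epithelial and neuronal polarity, had 5.86, 5.81 and 7.24 CPM in DN outputs, 20.1, 36.4 and 8.28 CPM in CTRL outputs, 12.3, 6.31 and 8.40 CPM in DN inputs and 10.4, 8.56 and 17.8 CPM in CTRL inputs. All 3 DN outputs lay below all 3 CTRL outputs, with CTRL output pools 1 and 2 above all other Mark2 libraries and CTRL output pool 3 just above the DN outputs. Mark3 had 15.4, 19.4 and 25.4 CPM in DN outputs, 30.1, 10.9 and 23.8 CPM in CTRL outputs, 22.5, 20 and 32.7 CPM in DN inputs and 17.3, 13.9 and 15.3 CPM in CTRL inputs. The outputs overlapped, while all DN inputs were above all CTRL inputs. Mark4 had 5.70, 4.66 and 2.42 CPM in DN outputs, 2.14, 1.70 and 3.51 CPM in CTRL outputs, 2.78, 4.21 and 4.84 CPM in DN inputs and 1.74, 0.644 and 2.36 CPM in CTRL inputs. Its DN inputs, too, lay above its CTRL inputs without overlap.

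The brain-specific kinases and Nuak1 overlapped between outputs of DN and CTRL. Brsk2 had 8.02, 26.8 and 21 CPM in DN outputs, 11.1, 13.0 and 18.6 CPM in CTRL outputs, 6.0, 11.6 and 15.4 CPM in DN inputs and 17.7, 13.6 and 5.84 CPM in CTRL inputs. Brsk1 had 0.103, 2.22 and 1.17 CPM in DN outputs, 2.43, 2.21 and 1.68 CPM in CTRL outputs, 1.78, 2.79 and 1.52 CPM in DN inputs and 3.17, 2.90 and 3.21 CPM in CTRL inputs. DN output pool 1 held only 7 Brsk1 counts, against 149 and 85 in pools 2 and 3, and the CTRL inputs were the highest of all Brsk1 libraries. Nuak1 had 3.54, 7.11 and 9.43 CPM in DN outputs, 9.79, 4.30 and 8.05 CPM in CTRL outputs, 7.00, 6.88 and 5.04 CPM in DN inputs and 9.5, 5.80 and 10.2 CPM in CTRL inputs, and its groups overlapped.

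**Figure D1:**
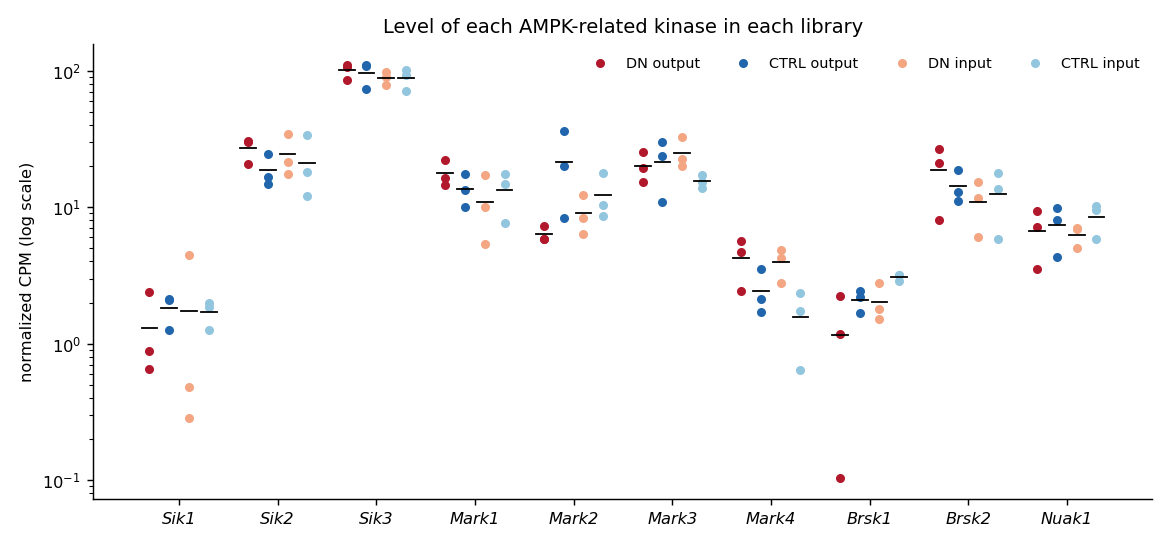
Normalized CPM on a log scale for each of the 10 kinases, with 1 point per pool and a bar at the mean of the 3 pools, for DN outputs, CTRL outputs, DN inputs and CTRL inputs. The 4 means of Sik3 lie at 88.0 to 101 CPM, and the Mark2 points of DN outputs (5.81 to 7.24 CPM) lie below those of CTRL outputs (8.28 to 36.4 CPM).

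The spread between pools was larger than counting error for every member and group but 1. The coefficient of variation over 3 pools ranged up to 135% (Sik1 in DN inputs, where counting alone gives 14.5%), and it was 12.9% and 65.5% for Mark2 in DN and CTRL outputs, against counting errors of 4.78% and 2.66%. Brsk1 in CTRL inputs was the exception, with 5.45% between pools and 11.1% from counting. For Sik3 the spread was 11.3% to 21.5% in the 4 groups, and no other member stayed as low in all 4.

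To set members beside each other, normalized CPM was divided by the length of each gene's exons in kilobases. On this scale Sik3 stood first in every group, with 10.9 ± 1.43 CPM per kb in DN outputs, 10.4 ± 2.24 in CTRL outputs, 9.54 ± 1.08 in DN inputs and 9.45 ± 1.68 in CTRL inputs (SD, n = 3 each). Its lowest library was above the highest library of the next member in each group. Sik3 made up 41.3%, 41.0%, 41.6% and 41.4% of the summed level of the 10 members in these groups. Sik1 stood last in every group, at 0.254 ± 0.182, 0.355 ± 0.0968, 0.337 ± 0.455 and 0.332 ± 0.0767 CPM per kb in DN outputs, CTRL outputs, DN inputs and CTRL inputs.

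Between these ends the order was mostly unresolved. In DN outputs the mean level per kb ran Sik3, Mark1, Brsk2, Sik2, Mark3, Nuak1, Mark4, Mark2, Brsk1, Sik1, and only Sik3 and Mark1 and, further down, Mark2 and Brsk1 were neighbours whose libraries did not overlap. In CTRL outputs the order was Sik3, Mark1, Mark2, Brsk2, Mark3, Sik2, Nuak1, Mark4, Brsk1, Sik1, with Sik3 and Mark1 and also Nuak1 and Mark4 apart. DN inputs ran Sik3, Mark3, Sik2, Mark1, Brsk2, Mark2, Nuak1, Mark4, Brsk1, Sik1, and Sik3 alone was apart from its neighbour. CTRL inputs ran Sik3, Mark1, Sik2, Brsk2, Mark3, Mark2, Nuak1, Brsk1, Mark4, Sik1, where 3 of 9 neighbouring pairs were apart (Sik3 and Mark1, Nuak1 and Brsk1, Brsk1 and Mark4). Mark2 stood between Mark4 and Brsk1 in DN outputs and between Mark1 and Brsk2 in CTRL outputs, at 0.794 ± 0.102 and 2.72 ± 1.78 CPM per kb. With the longest coding transcript as the length, Sik3 stayed first and Sik1 last in all 4 groups, while Mark3 stood second in each.

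**Figure D2:**
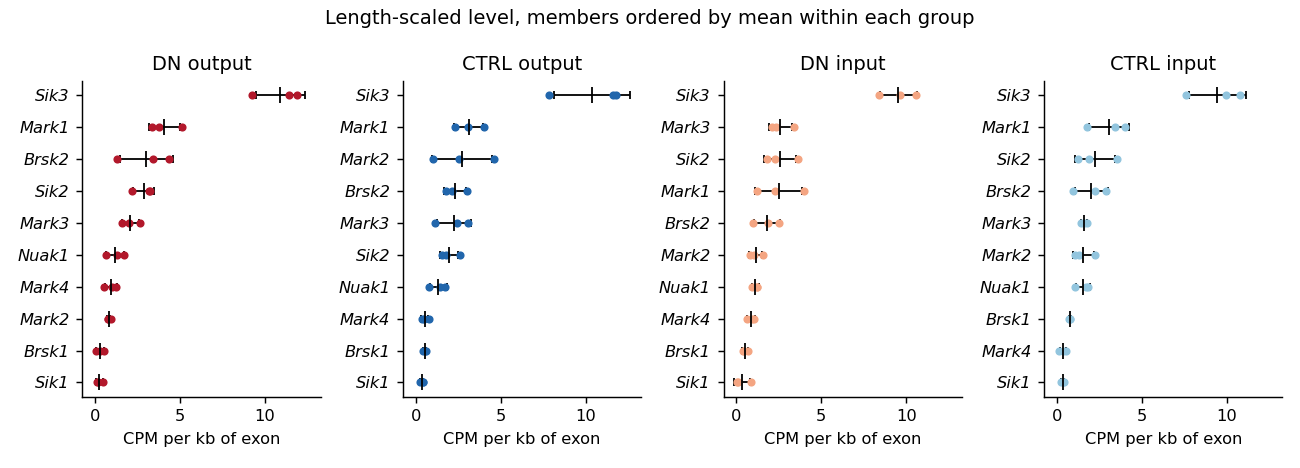
Normalized CPM per kilobase of exon in DN outputs, CTRL outputs, DN inputs and CTRL inputs, with members ordered by their mean in each group; points are pools, the tick is the mean and the bar the SD of 3 pools. Sik3 (9.45 to 10.9 CPM per kb) lies apart from the other members in every panel, and Mark2 stands lower in the order in DN outputs than in CTRL outputs.

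By subfamily, the 3 SIK genes held 53.1% of the summed level per kb in DN outputs, 50.1% in CTRL outputs, 54.3% in DN inputs and 52.6% in CTRL inputs. The 4 MARK genes held 29.8%, 33.7%, 30.8% and 28.7% in the same groups, the BRSK pair 12.5%, 11.1%, 9.92% and 12.1%, and Nuak1 4.52%, 5.15%, 4.89% and 6.61%. These shares are descriptions of group means and were not tested.

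The next question was whether any member is richer in the RNA held by SF1-cell ribosomes than in the tissue as a whole. None of the members passed the test between outputs and inputs in either condition. With edgeR's quasi-likelihood test, 0 of 10 members passed an adjusted p of 0.05 in DN and 0 of 10 in CTRL, where 3.38% and 3.2% of all genes tested passed. At an unadjusted p under 0.05 the counts were also 0 of 10 in both, against 15.7% of all genes in DN and 16.3% in CTRL, and DESeq2 called 0 of 10 in both, against 8.92% and 8.99% of all genes. The median log2 fold change, output over input, over the 10 members was 0.09 in DN and 0.11 in CTRL, and over all genes tested 0.00 and 0.02. In bulk samples such as these, a different number of cells of a type and a different amount of RNA per cell cannot be told apart.

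Within pools, the medians over the members stayed near 0. The log2 ratio of output to input, with 1 CPM added to each, had a median over the 10 members of -0.20, 0.08 and -0.03 in DN pools and 0.04, -0.03 and 0.14 in CTRL pools. In the same pools the 8 VMN neuron markers had medians of 1.39, 1.67 and 1.57 in DN and 1.39, 1.57 and 1.99 in CTRL. Astrocyte markers had -1.40, -1.64 and -1.57 in DN and -1.56, -1.38 and -1.49 in CTRL, and oligodendrocyte markers lay lower still, down to -2.37 in DN and -2.14 in CTRL. The pull-down thus separated marker genes in every pool, while the kinases as a group lay between them, close to 0. Microglia, endothelial and GABA neuron marker medians were below 0 in all 6 pools. Of the VMN markers 6 of 8 passed as higher in DN outputs and 7 of 8 in CTRL outputs, and of the astrocyte markers 6 of 8 and 7 of 8 passed as lower. Under every alternative, leaving out single pools included, 4 of the 6 VMN marker calls held in DN and 1 of the 7 in CTRL, and 4 of the 6 astrocyte calls in DN and 2 of the 7 in CTRL.

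Single members departed from 0 in different ways. Sik3 had ratios of 0.11, 0.30 and 0.13 in DN pools and -0.46, 0.25 and 0.61 in CTRL pools, and its fitted log2 fold change was 0.18 ± 0.21 (SE) in DN and 0.13 ± 0.21 in CTRL. Its 95% intervals, 0.824 to 1.55 times the input in DN and 0.79 to 1.52 times in CTRL, were the narrowest of the members. Brsk2 was above 0 in all 3 DN pools (0.37, 1.15 and 0.43) and in 1 of 3 CTRL pools (-0.63, -0.06 and 1.52), with a fitted log2 fold change of 0.75 ± 0.58 in DN and 0.19 ± 0.47 in CTRL. Brsk1 was below 0 in all 6 pools, at -1.34, -0.24 and -0.22 in DN and -0.28, -0.28 and -0.65 in CTRL. All 3 CTRL outputs of Brsk1 lay below all 3 CTRL inputs, which made it the 1 member of 10 without overlap there, where 23.2% of all genes do not overlap. In DN no member was without overlap, against 22.5% of all genes. The fitted change of Brsk1 was -0.81 ± 1.28 in DN and -0.57 ± 0.76 in CTRL, with adjusted p of 0.823 and 0.782.

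Mark2 and Mark3 were below 0 in every DN pool and above 0 in 2 of 3 CTRL pools. Mark2 had ratios of -0.96, -0.10 and -0.19 in DN and 0.89, 1.97 and -1.02 in CTRL, with fitted log2 fold changes of -0.52 ± 0.64 and 0.80 ± 0.52. The CTRL value rested on its pools: it was 1.58 without pool 3 (adjusted p = 0.129) and 0.01 without pool 2. Mark3 had -0.51, -0.04 and -0.35 in DN and 0.76, -0.33 and 0.60 in CTRL. Mark4 was above 0 in all 3 CTRL pools (0.20, 0.71 and 0.42), and in DN it had 0.82, 0.12 and -0.77. Mark1 had 1.29, -0.08 and 1.08 in DN and 0.35, -0.00 and -0.14 in CTRL. Sik1, Sik2 and Nuak1 had pools on both sides of 0 in each condition.

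**Figure D3:**
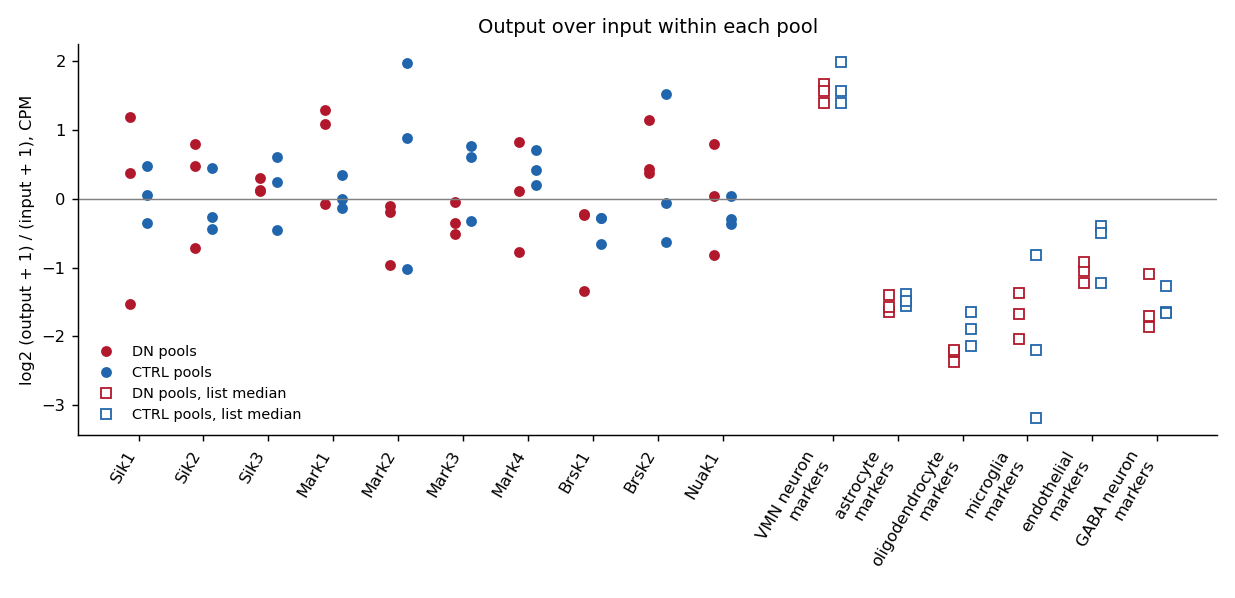
Log2 ratio of output to input (normalized CPM, 1 added to each) in each pool, DN pools left of CTRL pools, for the 10 kinases (circles) and for the median gene of 6 marker lists (squares). VMN neuron markers lie at 1.39 to 1.99 and astrocyte markers at -1.64 to -1.38, while medians over the kinases lie between -0.20 and 0.14.

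It was then asked whether dominant-negative AMPK altered the members in ribosome-bound RNA. None of the 10 passed an adjusted p of 0.05 in the DN against CTRL outputs with edgeR, where 0% of all 13333 genes tested passed. DESeq2 called 0 of 10 members, and 0.462% of all genes. Mark2 was the 1 member with an unadjusted p under 0.05 (5.41% of all genes) and the 1 member whose groups did not overlap (11% of all genes). Its level was 6.31 ± 0.811 CPM in DN outputs and 21.6 ± 14.1 CPM in CTRL outputs (SD, n = 3 each). The fitted log2 fold change was -1.78 ± 0.57 (SE; 95% interval -3.01 to -0.54) and the adjusted p was 0.91 with edgeR. DESeq2 gave the same -1.78 with adjusted p = 0.108, and over all alternatives the adjusted p was 0.108 to 1.0. Without CTRL pool 2 the log2 fold change was -1.17, and without CTRL pool 3 it was -2.17. As given above, the summed VMN neuron markers were higher and the summed GABA neuron markers lower in DN outputs than in CTRL outputs. The lower GABA neuron sum lay mostly in Gad2 and the lower astrocyte sum mostly in Slc1a2. Oligodendrocyte and microglia markers had median log2 fold changes of -0.73 and -0.43, with 0 of 7 and 2 of 7 measured genes above 0. Of the VMN, GABA neuron, astrocyte, oligodendrocyte and microglia lists, 0 of 8, 0 of 5, 0 of 7, 0 of 7 and 0 of 7 measured genes passed between DN and CTRL outputs with edgeR. No gene of these lists was at 0 in all 3 pools of either output group. Slc1a2 had a log2 fold change of -0.63 ± 0.11 without overlap between groups, with adjusted p = 0.88 in edgeR and 0.00949 in DESeq2. The part of these markers in the Mark2 difference was not tested.

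For the other members the DN outputs and CTRL outputs overlapped, and their 95% intervals all included 0. Sik3 had the tightest bound, a log2 fold change of 0.06 ± 0.22, which with its interval allows 0.747 to 1.44 times the CTRL level. Sik2 had 27.2 ± 5.66 CPM in DN outputs and 18.7 ± 5.24 CPM in CTRL outputs, a log2 fold change of 0.54 ± 0.37 (adjusted p = 0.949), with 0.829 to 2.57 times allowed. For Mark1, Brsk2, Mark3 and Nuak1 the log2 fold changes were 0.38 ± 0.43, 0.39 ± 0.50, -0.11 ± 0.44 and -0.14 ± 0.65. The low-count members were least bounded: Mark4 at 0.80 ± 0.84, Sik1 at -0.48 ± 1.09 and Brsk1 at -0.86 ± 1.21, the last allowing 0.0878 to 3.48 times the CTRL level. Over the 10 members 5 changes were above 0, and the median was -0.03, against 0.01 over all genes.

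In the tissue as a whole the members did not pass either. In DN inputs against CTRL inputs, 0 of 10 members passed with edgeR (0.00756% of all genes), 0 had an unadjusted p under 0.05 (4.46%) and 0 were called by DESeq2 (0.0153%). For 3 of the 10 the groups did not overlap, against 10.5% of all genes. Mark3 had 25.1 ± 6.72 CPM in DN inputs and 15.5 ± 1.71 CPM in CTRL inputs, a log2 fold change of 0.69 ± 0.36 (95% interval -0.08 to 1.47, adjusted p = 0.997). Mark4 had 3.94 ± 1.05 and 1.58 ± 0.871 CPM in DN and CTRL inputs (1.32 ± 0.89, adjusted p = 0.997), and Brsk1 had 2.03 ± 0.672 and 3.09 ± 0.168 CPM (-0.60 ± 0.85, adjusted p = 0.997). The VMN markers had log2 fold changes of DN over CTRL inputs above 0 in 8 of 8, with a median of 0.45 and 0 of 8 passing, while their sums (549 to 752 CPM in DN and 514 to 595 CPM in CTRL) overlapped. Among them Nr5a1 had 6.03 ± 1.15 CPM in DN inputs and 2.07 ± 0.846 CPM in CTRL inputs, without overlap (1.54 ± 0.73, adjusted p = 0.997). The VMN marker Nr0b1 had 323, 0 and 115 counts in DN inputs and 186, 12 and 23 in CTRL inputs (1.01 ± 1.43). The part of these markers in the Mark3, Mark4 and Brsk1 differences was not tested. Mark2, at 9.01 ± 3.05 CPM in DN inputs and 12.3 ± 4.92 CPM in CTRL inputs, had a log2 fold change of -0.44 ± 0.51 with overlapping groups. Sik3 was again the most closely bounded, at 0.01 ± 0.21, or 0.737 to 1.39 times the CTRL level. Sik1, Sik2, Mark1, Brsk2 and Nuak1 lay between -0.43 and 0.21. The median over members was -0.08, against 0.03 over all genes.

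**Figure D4:**
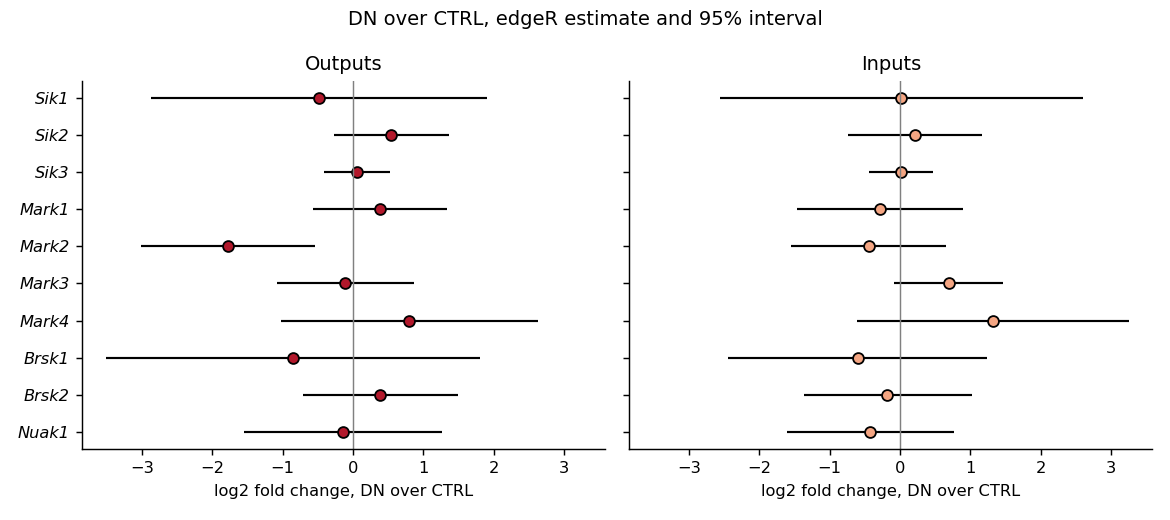
Log2 fold change of DN over CTRL for each kinase in outputs (left) and inputs (right), as points with 95% intervals from edgeR. The Mark2 interval in outputs (-3.01 to -0.54) is the one interval that leaves out 0, with adjusted p = 0.91 over all genes, and Sik3 has the narrowest interval in both panels.

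Whether the output-to-input difference itself changed with dominant-negative AMPK was tested by an interaction term over all 12 libraries. The count was 0 of 10 members with edgeR (0% of all 15011 genes), 0 at an unadjusted p under 0.05 (6.22%) and 0 with DESeq2 (0.674%). Mark2 had the largest value of the members, a log2 difference of -1.33 ± 0.75 (95% interval -2.91 to 0.25, adjusted p = 0.847), and this was -0.52 without CTRL pool 2 and -2.09 without CTRL pool 3. Mark3 had -0.80 ± 0.56, Mark1 0.67 ± 0.69 and Brsk2 0.57 ± 0.76. For Sik3 the difference was 0.04 ± 0.30.

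Genes that act upstream and downstream of the members gave few calls. In DN against CTRL outputs the median log2 fold change was 0.09 for the other AMPK-related and AMPK catalytic genes, 0.53 for the LKB1 complex, 0.11 for the CRTC and HDAC genes, 0.20 for CREB targets, 0.18 for the MARK, BRSK and NUAK1 substrates, 0.08 for the 14-3-3 genes and 0.11 for the PAR genes, beside 0.01 over all genes. In inputs these medians were -0.05, 0.16, 0.18, 0.11, 0.13, 0.17 and -0.29, beside 0.03 over all genes. Between outputs and inputs they were -0.11, 0.48, -0.38, 0.12, 0.02, 0.35 and 0.26 in DN, beside 0.00, and -0.22, 0.15, -0.06, 0.24, 0.03, 0.50 and 0.10 in CTRL, beside 0.02. No list of genes named here was tested as a set. The catalytic AMPK subunit genes were measured in all libraries. Prkaa1 had 26.9 ± 5.01 CPM in DN outputs and 34.6 ± 3.79 CPM in CTRL outputs (log2 fold change -0.37 ± 0.31, adjusted p = 0.957), without overlap, as for 11% of all genes. Prkaa2 had 91.4 ± 19.4 and 85.6 ± 12.5 CPM (0.09 ± 0.22, adjusted p = 0.989), with overlap. Whether RNA of the virus-borne mutant AMPK adds to the counts of these genes was not tested. In inputs Prkaa2 had 50.6 ± 12.1 CPM in DN and 70.3 ± 13.7 CPM in CTRL (-0.47 ± 0.26, adjusted p = 0.997), and Prkaa1 had 53.3 ± 30.3 and 40.0 ± 2.16 CPM (0.42 ± 0.36, adjusted p = 0.997). Neither passed between outputs and inputs with edgeR after the filter on low counts. There Prkaa2 had 0.84 ± 0.27 in DN (adjusted p = 0.124, and 0.0482 without the filter) and 0.28 ± 0.21 in CTRL, and Prkaa1 had -1.0 ± 0.41 and -0.22 ± 0.24. Of the remaining AMPK relatives, Melk had 0 counts in all 12 libraries and Nuak2 reached 73 counts at most. Snrk had 33.3 ± 32.0 CPM in DN outputs and 26.7 ± 5.33 CPM in CTRL outputs, with DN pool 2 at 70.3 CPM far above the rest.

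The LKB1 complex (Stk11, Strada, Stradb, Cab39 and Cab39l) had 5 of 5 genes measured, and 0 passed in any comparison. Cab39l, a scaffold of the complex, had 39.3, 16.3 and 8.08 CPM in DN outputs and 7.66, 9.23 and 11 CPM in CTRL outputs (1.19 ± 0.57, adjusted p = 0.911), and Stradb, a pseudokinase partner, had 18.6 ± 2.08 CPM in DN inputs and 10.5 ± 2.86 CPM in CTRL inputs (0.83 ± 0.42, adjusted p = 0.997). Among 7 CRTC and class IIa HDAC genes, the SIK substrates, 0 passed in any comparison with edgeR after the filter on low counts. Hdac5 had 33.9 ± 10.3 CPM in DN outputs and 16 ± 14.1 CPM in CTRL outputs (1.08 ± 0.55, adjusted p = 0.948). Crtc1, the neuronal CREB coactivator, had 58.0 ± 19.6 CPM in DN outputs against 26.4 ± 11.4 CPM in DN inputs (1.12 ± 0.39, adjusted p = 0.169), and 47.9 ± 21.5 CPM in CTRL outputs against 23.4 ± 1.15 CPM in CTRL inputs (1.02 ± 0.32, adjusted p = 0.126). The Crtc1 difference passed without the filter on low counts in DN (adjusted p = 0.0322) and in CTRL (0.029), and with DESeq2 in CTRL (0.0308). Crtc2 in inputs was at 1.25 ± 0.604 CPM in DN and 2.97 ± 0.675 CPM in CTRL (-1.25 ± 0.94, adjusted p = 0.997).

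Of 11 CREB target genes, 9 were measured in DN against CTRL outputs and in inputs, and 0 passed. Bdnf, a neurotrophin, had 19.1, 27.0 and 16.9 CPM in DN outputs and 30.5, 40.1 and 26.8 CPM in CTRL outputs, groups that overlapped by a narrow margin (-0.63 ± 0.34, adjusted p = 0.948). Bdnf was higher in CTRL outputs (32.5 ± 6.88 CPM) than in CTRL inputs (9.24 ± 4.01 CPM), the 1 of 10 measured targets that passed there (1.80 ± 0.40, adjusted p = 0.0363). This call ended without pool 1 (adjusted p = 0.222), without pool 2 (0.269) and in 1 fit of all 12 libraries (0.158). In DN Bdnf was at 21 ± 5.29 CPM in outputs and 9.10 ± 7.42 CPM in inputs (1.2 ± 0.70, adjusted p = 0.457), and the interaction was -0.61 ± 0.83 (adjusted p = 0.972). Nr4a1, an immediate early gene, was at 1.74 ± 1.60 CPM in DN inputs and 0.354 ± 0.154 CPM in CTRL inputs, a difference that did not pass. Nr4a2 in DN had 8.55 ± 1.58 CPM in outputs and 19.1 ± 10 CPM in inputs (-1.17 ± 0.55, adjusted p = 0.335). In the interaction Gem, a small GTPase, had the smallest p of the list, at 6.06 ± 3.56 (adjusted p = 0.85), with most of its reads in DN output pool 3 (4.59 CPM) and CTRL input pool 3 (3.30 CPM).

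Among the substrates of MARK, BRSK and NUAK1, 0 genes passed in any comparison with edgeR after the filter on low counts, with 7 or 8 of 9 measured. Rims1, a presynaptic active-zone scaffold and BRSK substrate, had 26.1, 32.4 and 36.8 CPM in DN outputs and 50.3, 44.6 and 70.0 CPM in CTRL outputs, with no overlap between groups (-0.79 ± 0.28, adjusted p = 0.911). In inputs Rims1 had 67.0 ± 28.6 CPM in DN and 46.8 ± 17.6 CPM in CTRL (0.52 ± 0.34, adjusted p = 0.997), and the interaction was -1.31 ± 0.46 (adjusted p = 0.714). Its DN outputs (31.7 ± 5.39 CPM) lay below its DN inputs without overlap (-1.09 ± 0.34, adjusted p = 0.112), a difference that passed with DESeq2 (-1.12, adjusted p = 0.0155) and without the filter on low counts (-1.06, adjusted p = 0.0355). Map2, a dendritic microtubule-associated protein, had 704 ± 50.1 CPM in CTRL outputs and 908 ± 130 CPM in CTRL inputs (-0.38 ± 0.13, adjusted p = 0.181).

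The phosphoprotein-binding 14-3-3 genes gave calls between outputs and inputs only, and 0 of 6 measured passed between DN and CTRL in either fraction. Ywhab rose in DN outputs, at 1050 ± 38.8 CPM against 617 ± 34.2 CPM in DN inputs (0.76 ± 0.11, adjusted p = 0.00244), and in CTRL outputs, at 964 ± 42.2 CPM against 563 ± 56.4 CPM in CTRL inputs (0.76 ± 0.13, adjusted p = 0.00946). Ywhag passed in CTRL, at 549 ± 83.4 CPM in outputs and 342 ± 18.8 CPM in inputs (0.67 ± 0.15, adjusted p = 0.0321), and had 0.47 ± 0.14 in DN (adjusted p = 0.107). The interaction for Ywhag, -0.21 ± 0.20, had an adjusted p of 0.95. Leaving out a pool ended the calls of Ywhab in DN (0.0534 without pool 2) and in CTRL (0.135 and 0.138 without pools 1 and 2), and of Ywhag in CTRL (0.104 to 0.217). Of the 7 PAR polarity genes, Pard3b was lower in DN outputs, with 2, 7 and 1 counts, than in DN inputs, with 142, 121 and 97 counts (-6.50 ± 1.39, adjusted p = 0.024), a call that ended without any of the 3 pools (adjusted p = 0.0967 to 0.174). In CTRL, Pard3b had 3, 538 and 219 counts in outputs and 64, 120 and 6 in inputs, and did not pass, and the interaction was -7.30 ± 2.02 (adjusted p = 0.691, against 0.00855 with DESeq2 and 0.0379 without the filter on low counts). None of the PAR genes passed between DN and CTRL, where Prkci in outputs (0.41 ± 0.31) and Pard6g in inputs (-2.48 ± 1.13) had the smallest p.

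As a measure of the pull-down, Fezf1, which encodes a VMN transcription factor, rose in DN outputs (233 ± 32.2 CPM, against 23.5 ± 10.4 in DN inputs, adjusted p = 0.00013) and in CTRL outputs (167 ± 8.37 CPM, against 17.3 ± 3.53 in CTRL inputs, adjusted p = 1.31e-05). Nr5a1 rose in CTRL outputs (22.7 ± 12.2 CPM, against 2.07 ± 0.846 in CTRL inputs, adjusted p = 0.00751), a call that ended without pool 1 (0.165) or pool 2 (0.108). In DN it had 22.4 ± 10.4 CPM in outputs and 6.03 ± 1.15 CPM in inputs (1.88 ± 0.55, adjusted p = 0.0946, against 0.0083 with DESeq2 and 0.0388 without the filter), and the interaction was -1.56 ± 0.74 (adjusted p = 0.799). Between DN and CTRL outputs, Fezf1 had a log2 fold change of 0.48 ± 0.16 (adjusted p = 0.911) and Nr5a1 one of -0.02 ± 0.50 (adjusted p = 0.999).

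Across the 12 libraries, pairs of members ran together in some cases and opposite in others. Pearson's r of log2(CPM + 1) between pairs of members ran from -0.75 for Sik2 and Nuak1 to 0.57 for Brsk1 and Nuak1, with Sik2 and Sik3 at 0.42, Brsk1 and Brsk2 at 0.08, and Mark1 and Mark2 at -0.16. The 12 points include input and output of the same pools, so they are not independent. Among 7715 protein-coding genes with a mean of at least 5 CPM, the gene most like Sik3 was Dlg3, a synaptic scaffold (r = 0.925), and those most like Brsk1 were Rasal2, a Ras GTPase-activating protein (0.909), and Gabpa, a transcription factor (0.894). Peg10, an imprinted gene, was most like Sik2 (0.861), Metap2, a methionine aminopeptidase, most like Sik1 (0.857), and Trim28, a corepressor, most like Mark4 (0.858). Med16, a Mediator subunit, was most like Mark2 (0.851), Cd99l2 most like Mark3 (0.856) and Rragc, a Rag GTPase, most like Mark1 (0.846). Rtcb, an RNA ligase, and Ddx3x, an RNA helicase, were most like Brsk2 (0.844 and 0.84), and Adipor2, an adiponectin receptor, most like Nuak1 (0.827). The genes in the place after the nearest were Jrkl for Sik3 (0.855), B4galt7 for Sik2 (0.85), Atpaf1 for Sik1 (0.856), Prr13 for Mark1 (0.83), Srgap2 for Mark2 (0.799), Itga3 for Mark3 (0.819), Pcgf6 for Mark4 (0.835) and Coro1c for Nuak1 (0.80). These are the highest of 7715 values for each member and describe these libraries alone.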

How the data were processed

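RNA was measured in 12 libraries, 4 groups of 3, grouped and numbered by the sample titles. The authors deposited whole-number read counts per Ensembl gene, 1 file per library, with no normalization. The tools HTSeq 0.6.1, STAR 2.4.2a and cutadapt 1.3 and the build GRCm38 are named per the submitters' processing notes, and per the labels all RNA was amplified linearly with the NuGEN Ovation system, which can add spread at low levels. The annotation release and strand setting were not given in the sources used here. The 5 HTSeq classes of reads not assigned to a single gene, 16.06% to 26.1% of the reads in the files, were left out. The classes for unaligned and low-quality reads were empty in all 12 libraries, so these shares do not cover such reads. Reads that matched several genes were among those left out. Symbols, exon lengths and positions came from GENCODE mouse release M21 on GRCm38, which held 46005 of 46517 identifiers (98.9%). Input libraries had the fewest nuclear counts and so the widest counting error. No molecular identifiers were named, so counting errors cover counting alone.

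Tests were edgeR's quasi-likelihood test (version 4.0.16, R 4.3.3) after TMM scaling, all two-sided. Genes were kept by filterByExpr with a minimum count of 10 and a minimum total of 15. Benjamini-Hochberg adjustment ran over every gene kept, with a threshold of 0.05. All 10 members passed the filter in every comparison. DN was set against CTRL in outputs and in inputs, and output against input in DN and in CTRL, in fits of the 6 libraries concerned. The interaction was fitted over 12. The main fits of output against input and of the interaction had no term for the pool, so these tests were unpaired. SE was derived from the test, as the size of the unshrunk log2 fold change divided by the square root of the quasi-likelihood F statistic. The 95% intervals were built from this SE around the unshrunk change. Printed log2 fold changes from edgeR are lightly shrunk toward no change, so an interval need not be centred on them. Alternatives were DESeq2 1.42.0 after the same filter, DESeq2 size factors in edgeR, no filter, no mitochondrial genes, a replicate block, a joint fit of the 12 libraries and fits without each replicate. DESeq2 at its defaults gave an adjusted p to fewer genes than edgeR, 12565 against 13333 in DN against CTRL outputs. Its shares of all genes are of those with an adjusted p. The tools were tested on simulated data. No library was a copy of another.

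The members and lists were chosen with earlier results of these data known. The rule for named genes took all members, of each list the genes past the threshold (at most 4 per comparison) or else the gene with the smallest p, Prkaa1, Prkaa2, Nr5a1 and Fezf1 always, and the 2 genes most correlated with each member. Melk, Nuak2 and values of list genes in comparisons where the rule did not take them were added after their values were seen.

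Input and output with the same number in their sample titles were taken to come from the same pool, by the study's design. Deviations from the group means over 15011 genes correlated within pools at 0.004, -0.002 and 0.015 in DN and 0.096, 0.035 and 0.156 in CTRL. These low values do not by themselves show that the numbers match pools. Between DN and CTRL a number joins different animals.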

Additional observations from a re-analysis of the deposited data

How the results depend on the processing

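None of 530 member values recomputed under alternatives passed the threshold. Of these, 494 kept their sign and 36 reversed, in 21 of 50 member results. The lowest adjusted p was 0.108, for Mark2 in outputs with DESeq2. The choice between TMM and DESeq2 size factors moved the median of all genes by at most 0.034. Both methods assume that most genes do not change, so this does not test where 0 lies in output-to-input ratios. The TMM factors over the 12 libraries were 0.505 to 0.661 in inputs and 1.60 to 1.92 in outputs. With the longest coding transcript as length, 21 of 40 levels per kb moved by over 1 SD, and no pool ratio moved with a pseudocount of 0.5. For every value printed below the cause was not tested.

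With the replicate block, signs turned for Sik1 in DN against CTRL inputs (-1.02), in DN output against input (0.51) and in the interaction (0.43), for Nuak1 in DN output against input (-0.02) and for Nr5a1 in DN against CTRL outputs (0.04), and the block changed no call of a member. Inputs and outputs were paired by the number in their titles, while between DN and CTRL the block joins unrelated animals. Mark1 in CTRL output against input was -0.00 with DESeq2 and with its size factors in edgeR.

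Leaving out replicates turned these log2 fold changes, given as lowest and highest. In DN against CTRL outputs they were -0.11 to 0.16 for Sik3, -0.42 to 0.21 for Mark3, -0.47 to 0.17 for Nuak1, -0.09 to 0.20 for Prkaa2 and -0.33 to 0.49 for Nr5a1. In inputs they were -2.15 to 0.52 for Sik1, -0.13 to 0.71 for Sik2, -0.12 to 0.13 for Sik3, -0.79 to 0.03 for Mark1, -0.52 to 0.18 for Brsk2 and -0.12 to 0.74 for Prkaa1. For output against input in DN they were -1.62 to 1.98 for Sik1, -0.15 to 0.63 for Sik2, -0.36 to 0.55 for Mark4 and -0.40 to 0.47 for Nuak1. In CTRL they were -0.21 to 0.38 for Sik1, -0.40 to 0.06 for Sik2, -0.08 to 0.41 for Sik3, -0.08 to 0.13 for Mark1 and -0.38 to 0.69 for Brsk2. In the interaction they were -1.70 to 1.89 for Sik1, -0.23 to 0.27 for Sik3, -0.82 to 0.21 for Brsk1, -0.18 to 0.68 for Nuak1, -1.78 to 9.91 for Gem and -0.35 to 0.42 for Fezf1.

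Counts of all genes called moved more. In DN against CTRL outputs edgeR called 0 and DESeq2 58. In inputs edgeR called 1, DESeq2 2, and edgeR 39 without the filter, 0 with DESeq2 size factors, without mitochondrial genes, with the replicate block and in 1 fit of 12 libraries, and 0 to 8 without single replicates. For output against input in DN the counts were 441 with edgeR, 1125 with DESeq2, 976 without the filter, 673 in 1 fit of 12 libraries and 115 to 148 without single pools. In CTRL they were 431, 1172 with DESeq2, 903 without the filter and 45 to 214 without single pools. In the interaction they were 0, 99 with DESeq2 and 54 without the filter. Of the other genes named, Slc1a2 in DN against CTRL outputs passed with DESeq2 alone, and Prkaa2, Crtc1, Rims1 and Nr5a1 between outputs and inputs and Pard3b in the interaction passed with DESeq2, without the filter or with both. The low-count members Sik1, Brsk1 and Mark4 had the largest standard errors of the members in every comparison. Their spread between pools was larger than counting error in every group, except for Brsk1 in CTRL inputs. The part of depth in these standard errors was not tested.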
